A study of Rattus norvegicus with 22 samples.

Results

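Solute carriers are the membrane proteins that move nutrients, ions, vitamins and metabolites into cells and between their compartments, and their gene symbols begin with Slc. In the deposited table of liver transcripts from male rats 39 of 1365 rows carried such a symbol. Leaving out Slc25a1, Slc10a1, Slc27a5 and Slco1b2 and keeping 1 row per gene gave 34 genes, named below members. They were chosen by symbol, with earlier results of these data known, and the table itself holds rows already selected for a difference between the groups. The animals were Wistar rats at postnatal day 110, either male offspring of mothers on a control diet (6 control animals) or male offspring of mothers on an obesogenic diet, termed maternal obesity (MO, 5 animals). The labels give no litter, no timing of the maternal diet and no diet of the offspring. Whole liver was sequenced, 1 library per animal. Levels are read counts scaled to library size (RPM), not divided by transcript length, so they are compared between animals and not between genes. The RPM scale was inferred from the values.

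Many solute carriers sit in the plasma membrane, where they take up nucleosides, vitamins, sugars, amino acids and organic ions from blood or bile. Members of family 39 bring zinc and other metals into the cytosol. The Slc25 family lies in the inner mitochondrial membrane and exchanges metabolites, cofactors and iron between cytosol and matrix, which makes it a gate for oxidation, heme synthesis and gluconeogenesis in liver.

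The members were divided by direction. In MO males 31 of 34 were lower and 3 were higher, and the 3 higher ones, Slc25a30, Slc25a47 and Slc25a42, all belonged to the 7 mitochondrial carriers. Each of the other 27 members was lower, although 13 of all 31 lower members came to lie slightly above 0 once each library was centred on its median, as given below. The largest decreases were those of the nucleoside carrier Slc28a2, the sulfate carrier Slc13a4 and the aromatic amino acid carrier Slc16a10. Of all rows 96.5% were called lower and 3.52% higher (limma, Benjamini-Hochberg adjusted p under 0.05), against 91.2% and 8.82% of the members. That all 34 members passed follows from the selection of the rows and is no result about the members.

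The promoters of 4 members are shown because these genes, 2 of each direction, were still called after centring (Slc25a30, the other one, had no entry). Each line is the 250 bases before the gene start, 5′ to 3′ on the coding strand, from RefSeq with the build GRCr8. Slc25a47 lies at chr6:133531491-133531740 on the plus strand, Slc25a42 at chr16:19247724-19247973 on the plus strand, Slc28a2 at chr3:129819538-129819787 on the plus strand and Slc13a4 at chr4:64955987-64956236 on the minus strand. Capitals mark matches to the motifs searched, which are a nuclear receptor half-site in Slc25a47, GC boxes in Slc25a42 and Slc13a4, and a TATA box sequence in Slc28a2.
Slc25a47: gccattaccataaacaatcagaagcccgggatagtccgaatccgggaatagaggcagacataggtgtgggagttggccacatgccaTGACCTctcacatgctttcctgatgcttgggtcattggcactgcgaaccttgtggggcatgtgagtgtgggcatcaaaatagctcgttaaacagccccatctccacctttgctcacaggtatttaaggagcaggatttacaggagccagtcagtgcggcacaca
Slc25a42: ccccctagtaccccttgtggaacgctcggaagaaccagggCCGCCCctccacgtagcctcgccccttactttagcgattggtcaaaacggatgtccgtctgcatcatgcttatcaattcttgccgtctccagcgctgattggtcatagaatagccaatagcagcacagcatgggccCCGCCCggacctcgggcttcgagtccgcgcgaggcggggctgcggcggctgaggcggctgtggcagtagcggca
Slc28a2: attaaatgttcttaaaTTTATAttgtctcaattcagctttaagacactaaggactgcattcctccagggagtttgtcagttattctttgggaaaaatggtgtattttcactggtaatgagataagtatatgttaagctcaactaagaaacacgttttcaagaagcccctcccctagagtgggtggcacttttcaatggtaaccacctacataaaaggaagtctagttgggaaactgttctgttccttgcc
Slc13a4: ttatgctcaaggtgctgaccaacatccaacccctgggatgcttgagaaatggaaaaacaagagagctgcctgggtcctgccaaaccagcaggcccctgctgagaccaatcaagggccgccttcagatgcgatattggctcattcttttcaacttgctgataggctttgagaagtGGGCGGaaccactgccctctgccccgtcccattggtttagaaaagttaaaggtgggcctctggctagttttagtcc

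Of the 34 members 29 had an entry in the RefSeq promoter table. The GC content of these windows was 51.6% for Slc25a47, 62.4% for Slc25a42, 38.0% for Slc28a2 and 52.0% for Slc13a4. A member counted when any of its promoters matched, while the shares are over single promoters (33469 for 27457 genes). The counts and shares are thus not on the same basis. On both strands the GC box GGGCGG was in 15 of 29 members and in 30.5% of the 33469 promoters of the table. The TATA box TATAAA was in 5 (12.9% of all promoters), the nuclear receptor half-site AGGTCA in 3 (14.1%), the E-box CACGTG in 2 (5.59%) and the HNF1 half-site GTTAAT in 1 (6.45%). The nuclear receptor direct repeat 1, which contains the half-site, was in 0 members (0.0508% of all promoters). The cyclic AMP response element TGACGTCA (1.59%), the D-box TTATGTAA (0.828%), the forkhead site TGTTTAC (3.21%) and the HNF4 site CAAAGTCCA (0.338%) were likewise in 0. These are matches of letters within 1 short window.

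Depth read from the values was 7890000 to 11170000 reads in control libraries and 10530000 to 11590000 in MO libraries, so that 1 read was worth 0.0863 to 0.127 RPM. Control male 6 stood apart from the other controls. It had the highest control value in 25 of 34 members, 73.5%, and in 71.4% of all rows. Without it all 34 members still passed, as did 1352 of the 1365 rows, so this is nothing particular to the members. The median log2 fold change of the members was then -0.50 in place of -0.60. Of the fixed hepatocyte markers 2 of 15 were in the table, Cps1 and Cyp2c13, at a summed 2811 to 5544 RPM in controls and 2334 to 2826 RPM in MO males. The markers of bile duct cells (3 of 8 listed), stellate cells (3 of 10) and endothelial cells (2 of 10) that were listed were all lower too, and 0 of 10 Kupffer cell and 0 of 8 erythroid markers were listed. No listed marker was at 0 in any library. The summed levels ran from 24.9 to 42.8 RPM in controls and 17.9 to 24.7 RPM in MO males for bile duct cells, from 42.6 to 55.5 and 29.0 to 34.3 RPM for stellate cells, and from 81.8 to 147.9 and 52.4 to 78.7 RPM for endothelial cells. Their part in the results was not tested, and in whole liver fewer cells of a type and less RNA per cell cannot be told apart.

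**Figure D1:**
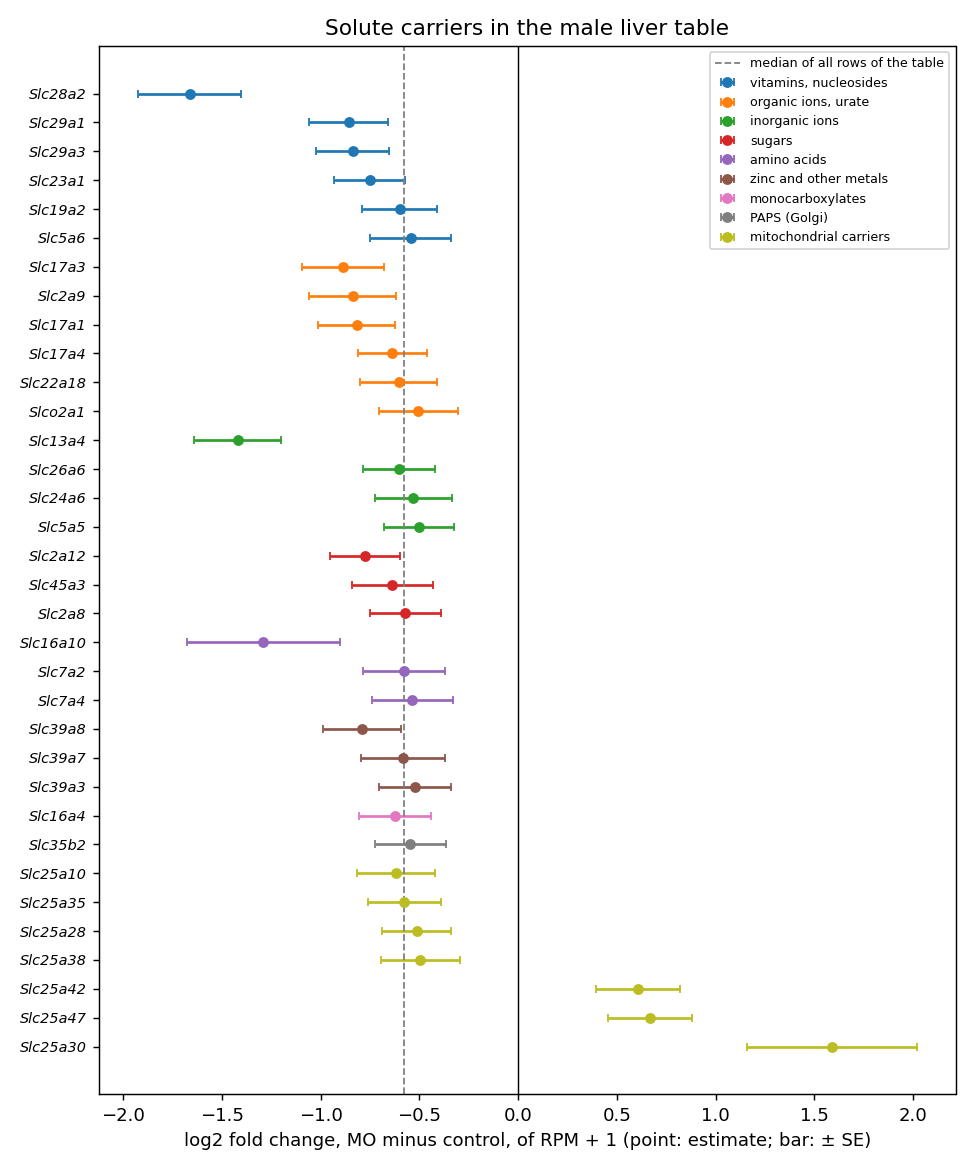
Log2 fold change of RPM + 1, MO minus control, of the 34 members (points, with SE as bars), coloured by substrate class, with 0 as a solid line and the median of all rows of the table as a dashed line at -0.58. Of the members 31 lie left of 0 and 3 mitochondrial carriers lie right of it, and only Slc28a2, Slc13a4 and Slc16a10 are at -1 or lower.

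All fold changes are of log2(RPM + 1), so for low genes they come out too small. The median over the members was -0.60 and over all rows -0.58, so a typical member differed as a typical listed row did. At a change of -1 or lower were 3 of 34 members, 8.82%, against 5.2% of all rows, and 1 member was at 1 or higher, against 1.03% of rows. Because nearly every row was lower, each library was also centred on its median over all rows, which moved the median change by 0.58 and raised every member by that amount. On the centred scale 2 members, Slc28a2 and Slc13a4, were called lower (1.76% of all rows were) and the 3 mitochondrial carriers higher (3.52% of rows). There 18 members were below 0 and 16 above, 20 of them within 0.1 of it, and of all rows 48.2% were below 0. By an exact permutation test with adjustment over all rows, 0 members passed on the centred scale, and 6 were at an unadjusted p under 0.05 (8.57% of all rows). No row of the table could pass there. Even at the lowest p this test can give, 0.00216, the adjusted exact permutation p was 0.0799, so the 0 says nothing of the members.

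The nucleoside carriers included the member with the largest decrease. Slc28a2, on chromosome 3, is the sodium-coupled carrier that concentrates purine nucleosides in cells. Its values in control males ran from 188.9 RPM over a median of 282 RPM to 375.9 RPM, and in the 5 MO males they were 71.7, 48.6, 185.9, 72.1 and 103.8 RPM. All 5 MO animals were below every control, but MO male 3 was only just below the lowest control. The means were 284.5 ± 73.2 RPM (SD, n = 6) and 96.4 ± 53.7 RPM (SD, n = 5), a log2 fold change of -1.66 ± 0.26 (SE, with an adjusted p = 0.000135 by limma). After centring it was at -1.08 ± 0.29 (SE, with an adjusted p = 0.0489 by limma), and the groups then overlapped. That centred call did not hold up: it was lost without any 1 of 6 animals (control males 1, 2 and 4 and MO males 1, 2 and 4), where the limma adjusted p reached 0.159, and also with a pseudocount of 0.1 (limma adjusted p = 0.060) and with the replicate block (limma adjusted p = 0.138).

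Slc29a1, the equilibrative nucleoside carrier of the plasma membrane, ranged over 50.7 to 89.9 RPM among controls (median 54.3 RPM), against 39.4, 32.3, 40.3, 32.5 and 20.4 RPM in MO males. The groups did not overlap, and 5 of the 6 controls lay close together with control male 6 well above them. Its log2 fold change was -0.86 ± 0.20 (SE), and -0.74 without that control. Slc29a3, the nucleoside carrier of lysosomes and other inner membranes, was at 4.18 to 9.35 RPM in controls and 2.28 to 3.19 RPM in MO males, again without overlap (-0.84 ± 0.18, SE). Thus the 3 listed nucleoside carriers, of 2 families, were each lower in 5 of 5 MO animals than in any control. Over all members the groups did not overlap in this way for 12 of 34, 35.3%, against 29.9% of all rows, and in 0 members was every MO animal above every control, against 0.733% of rows. After centring Slc29a1 was at -0.27 and Slc29a3 at -0.25, and neither passed (limma adjusted p = 0.551 and 0.878).

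Of the 3 vitamin carriers, Slc23a1, which takes up vitamin C, ranged over 29.9 to 59.7 RPM among controls (median 40.4 RPM), against 19.4, 25.7, 24.3, 27.7 and 24.3 RPM in MO males. The MO animals were all below every control and, in RPM, closer together than the controls. The log2 fold change was -0.75 ± 0.18 (SE). On the centred log2 scale the MO males were the more spread, at 0.34 to 1.02 against 0.66 to 1.01 in controls. Slc19a2, the thiamine carrier, was at 94.8 to 201.4 RPM and 72.9 to 111.3 RPM, with 3 of 5 MO animals below every control. Slc5a6, which carries biotin and pantothenate, was at 24.5 to 61.6 RPM and 22.0 to 32.8 RPM, and 2 of 5 MO animals were below every control. Relative to the median of the table Slc19a2 (-0.01) and Slc5a6 (0.04) were near 0 and Slc23a1 was at -0.17.

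The members that carry organic anions, urate and related compounds numbered 6, all lower, with a median log2 fold change of -0.73. Slc17a3 and Slc17a1, both anion carriers that move urate and phosphate, and Slc17a4, an organic anion carrier of the same family, lie next to each other in the gene order of chromosome 17 with 0 other coding genes between neighbours. Slc17a3 ranged over 61.5 to 139.9 RPM among controls (median 101.9 RPM), against 49.5, 44.7, 57.5, 50.5 and 67.0 RPM in MO males. MO male 5 was above the lowest control, and the other 4 MO animals were below every control. Slc17a1 was at 24.7 to 51.9 RPM and 17.3 to 21.3 RPM with no overlap, and its MO values differed by at most 1.23-fold from each other against 2.1-fold in controls. Slc17a4 ranged over 25.8 to 37.2 RPM among controls, against 27.5, 16.1, 16.9, 21.5 and 22.5 RPM in MO males, where MO male 1 lay within the control range. The log2 fold changes of these neighbours were -0.88 ± 0.21, -0.82 ± 0.19 and -0.64 ± 0.17 (SE each).

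Slc2a9, by sequence a glucose carrier family member and known as a urate carrier, ranged over 31.1 to 84.9 RPM among controls (median 50.5 RPM), against 30.3, 28.5, 36.8, 25.6 and 22.8 RPM in MO males. All MO animals but MO male 3 were below every control, and the log2 fold change was -0.84 ± 0.22 (SE). Slc22a18, of the organic ion carrier family, was at 163.2 to 359.8 RPM and 121.2 to 179.6 RPM (-0.61 ± 0.19, SE). Slco2a1, the prostaglandin carrier, ranged over 272.5 to 597.3 RPM among controls, against 225.6, 230.3, 350.6, 251.9 and 252.7 RPM in MO males, where 4 of 5 were below every control and MO male 3 was above 4 of the 6 controls. Its change of -0.51 ± 0.20 (SE, with an adjusted p = 0.0199 by limma) was no longer called without MO male 1 (limma adjusted p = 0.0510) or MO male 2 (limma adjusted p = 0.0501). After centring 5 of these 6 genes were below 0, from -0.30 to -0.02, Slco2a1 was at 0.08, and 0 passed.

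Among the carriers of inorganic ions Slc13a4 on chromosome 4, which takes up sulfate together with sodium, differed most. It ranged over 49.4 to 102.7 RPM among controls (median 65.7 RPM), against 17.9, 21.3, 28.0, 38.8 and 23.2 RPM in MO males. Every MO animal was below every control. The means were 71.2 ± 22.3 RPM (SD, n = 6) and 25.8 ± 8.10 RPM (SD, n = 5), a log2 fold change of -1.42 ± 0.22 (SE, with an adjusted p = 0.000125 by limma; exact permutation p = 0.00216, the lower limit for groups of this size). After centring it was at -0.83 ± 0.17 (SE, with an adjusted p = 0.00717 by limma), still with all MO animals below all controls, as for 0.952% of all rows. It was the only lower member without overlap on that scale. The centred call held with each of the 11 animals left out in turn (limma adjusted p at most 0.0225) but not against control males 1 and 5 alone (limma adjusted p = 0.125).

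The other 3 ion carriers differed less. Slc26a6, an anion exchanger, ranged over 9.67 to 15.7 RPM among controls and 4.49 to 8.39 RPM in MO males, and the groups did not overlap. The sodium-iodide carrier Slc5a5, best known from the thyroid, was at 0.98 to 2.3 RPM in controls, or 9 to 22 reads, and at 0.58 to 0.94 RPM in MO males, or 7 to 10 reads. These groups were separate as well in RPM, but they rest on few reads, and the read counts overlapped. The highest MO value and the lowest control value lay less than 1 read apart. Slc24a6, the mitochondrial sodium-calcium exchanger now named Slc8b1, was at 37.0 to 63.5 RPM and 25.6 to 44.5 RPM, with overlap. Relative to the table median Slc26a6 (-0.02), Slc24a6 (0.05) and Slc5a5 (0.09) were near 0, the last 2 with the sign turned.

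Slc35b2 carries the activated sulfate donor of sulfation reactions into the Golgi. It ranged over 15.0 to 27.3 RPM among controls, against 15.1, 11.2, 15.8, 11.04 and 9.92 RPM in MO males, where 2 of 5 MO animals lay within the control range (-0.55 ± 0.18, SE; 0.04 after centring). In the gene order of chromosome 9 it is parted from Slc29a1 by 1 coding gene, Hsp90ab1.

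The 3 sugar carriers were all lower. Slc2a12, a facilitative glucose carrier, ranged over 2.28 to 4.25 RPM among controls (median 3.25 RPM), against 1.71, 1.23, 1.68, 1.6 and 1.04 RPM in MO males, with no overlap (-0.78 ± 0.18, SE). Slc2a8, a glucose carrier of inner membranes, was at 7.99 to 15.6 RPM and 5.29 to 8.3 RPM, and 4 of 5 MO animals were below every control. Slc45a3, of a family of proton-coupled sugar carriers, was at 18.9, 17.9, 8.15, 19.6, 16.7 and 12.1 RPM in the 6 control males and 7.6 to 12.3 RPM in MO males. Its control male 3 was at the level of the MO animals, and control male 6, the highest for most members, was the second lowest here. After centring the 3 were at -0.19, 0.01 and -0.05, and none passed.

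The 3 amino acid carriers were lower, and for none of them were the groups separate. Slc16a10, on chromosome 20, carries aromatic amino acids and thyroid hormones. In the 6 control males it was at 14.4, 6.55, 23.0, 10.1, 47.3 and 54.5 RPM, an 8.33-fold range, and in the MO males at 6.31, 7.79, 5.73, 14.9 and 5.61 RPM. Control males 5 and 6 were high, control male 3 was also above every MO animal, and control males 1, 2 and 4 lay within the MO range, so that 3 of 5 MO animals were below every control. The log2 fold change was -1.29 ± 0.39 (SE, with an adjusted p = 0.0082 by limma), and it missed the threshold in the exact permutation test (p = 0.0563). Without control male 6 it was -1.01, and after centring -0.71 ± 0.41 (SE, with an adjusted p = 0.878 by limma).

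Slc7a2, which carries arginine and other cationic amino acids, ranged over 14.5 to 41.2 RPM among controls and 11.9 to 18.4 RPM in MO males, with 2 of 5 MO animals below every control (-0.58 ± 0.21, SE; 0.01 after centring). Slc7a4, of the same family, was at the edge of detection. In control males it was at 1.0, 2.18, 0.56, 0.76, 0.36 and 0.85 RPM, or 4 to 19 reads, and in MO males at 0.09 to 0.66 RPM, or 1 to 7 reads. Control male 2 lay far above the others, and without it the change of -0.54 became -0.38 and was no longer called (limma adjusted p = 0.0506). It was 0.05 after centring.

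The metal carriers were Slc39a8, which brings zinc and manganese into cells, and the zinc carriers Slc39a3 and Slc39a7, the last in the endoplasmic reticulum and Golgi. Slc39a8 ranged over 47.9 to 90.9 RPM among controls (median 59.4 RPM), against 45.2, 25.1, 36.7, 38.8 and 31.7 RPM in MO males, all below every control (-0.79 ± 0.20, SE). Slc39a3 was at 13.6 to 25.6 RPM and 9.15 to 13.3 RPM, also without overlap, although MO male 1 nearly reached the lowest control. Slc39a7 was at 40.3 to 107.3 RPM and 32.1 to 56.4 RPM with overlap. On the centred scale they were at -0.21, 0.06 and 0.00. Slc16a4, of the monocarboxylate carrier family, ranged over 51.5 to 74.5 RPM among controls and 32.02 to 53.9 RPM in MO males, where MO male 5 lay within the control range (-0.62 ± 0.18, SE; -0.04 after centring).

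**Figure D2:**
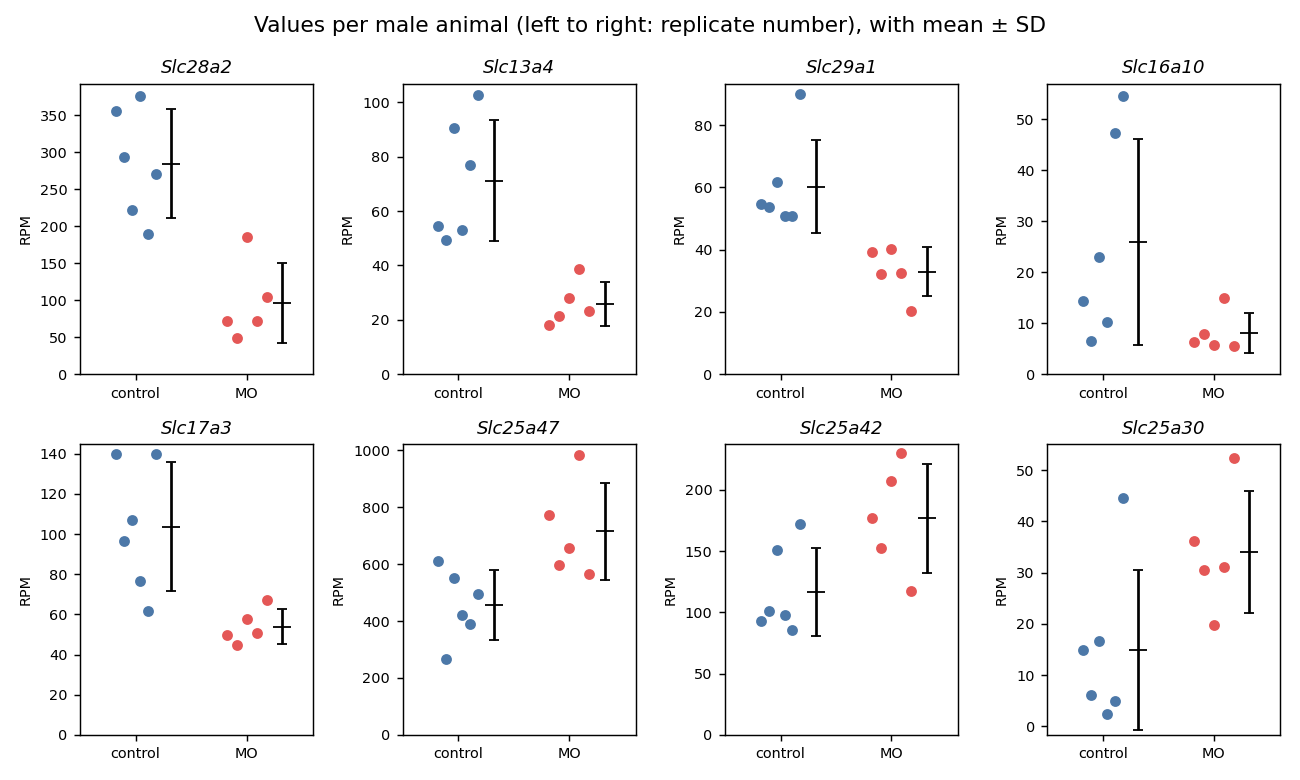
RPM per male animal for 8 members, control (blue) and MO (red) points in order of replicate number, with mean and SD beside them. All MO points of Slc28a2, Slc13a4 and Slc29a1 lie below every control point, and those of Slc16a10 and Slc17a3 reach into the control range. Above every control point lie 3 of 5 MO points of Slc25a47, 3 of 5 of Slc25a42 and 1 of 5 of Slc25a30.

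The 7 mitochondrial carriers went both ways, with 3 higher and 4 lower. Slc25a47, a liver-enriched carrier on chromosome 6, ranged over 266.6 to 611.9 RPM among controls (median 457.9 RPM), against 771.4, 597.1, 655.7, 985.2 and 566.4 RPM in MO males. Control male 1 was above MO males 2 and 5, and the other 5 controls were below every MO animal. The means were 455.9 ± 123.2 RPM (SD, n = 6) and 715.2 ± 170.1 RPM (SD, n = 5), a 1.57-fold ratio and a log2 fold change of 0.67 ± 0.21 (SE, with an adjusted p = 0.00944 by limma). All 5 MO animals exceeded the control mean and 3 of them every control.

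Slc25a42, which brings coenzyme A into the matrix, ranged over 85.7 to 172.5 RPM among controls (median 99.3 RPM), against 176.8, 152.9, 207.1, 229.8 and 117.2 RPM in MO males. Control males 3 and 6 reached the MO range, and MO males 2 and 5 lay within the control range. The log2 fold change was 0.61 ± 0.21 (SE, with an adjusted p = 0.0122 by limma), with 3 of 5 MO animals above every control. Slc25a30, on chromosome 15, a carrier first described in kidney, had the largest increase and the widest spread. It was at 14.9, 6.2, 16.6, 2.41, 5.01 and 44.6 RPM in the 6 control males, an 18.5-fold range, and at 36.2, 30.5, 19.8, 31.05 and 52.4 RPM in MO males. Each MO animal was above 5 of the 6 controls, and control male 6 was above all MO animals but MO male 5. The log2 fold change was 1.59 ± 0.43 (SE, with an adjusted p = 0.00577 by limma), and 2.0 without that control.

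On the centred scale Slc25a47 was at 1.25 ± 0.17, Slc25a42 at 1.19 ± 0.14 and Slc25a30 at 2.17 ± 0.45 (SE each; limma adjusted p = 0.000323, 0.000159 and 0.00708). There Slc25a47 and Slc25a42 were above every control in all MO animals, as were 3.0% of all rows, and Slc25a30 was not. Since centring adds 0.58 to every row, a row that was higher before it is bound to stand further out after it.

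The 4 lower mitochondrial carriers kept near the median of the table. Slc25a10, which exchanges malate and succinate for phosphate or sulfate, ranged over 177.0 to 426.2 RPM among controls (median 226.6 RPM), against 173.8, 172.9, 156.4, 167.7 and 129.4 RPM in MO males. The groups did not overlap, but the highest MO animal was within a few RPM of the lowest control, and control male 6 lay far above the other controls (-0.62 ± 0.20, SE; -0.46 without it). Slc25a28, the iron carrier mitoferrin-2, was at 17.3 to 26.8 RPM and 11.3 to 17.8 RPM, and Slc25a38, which imports glycine for heme synthesis, at 39.3 to 69.5 RPM and 24.8 to 54.0 RPM. Slc25a38 had the smallest change of any member, -0.50 ± 0.20 (SE, with an adjusted p = 0.0212 by limma), which was not called without MO male 5 (limma adjusted p = 0.0837). Slc25a35 was at 1.39 to 3.72 RPM and 0.95 to 1.89 RPM. On the centred scale Slc25a10 was at -0.03, Slc25a28 at 0.07, Slc25a38 at 0.09 and Slc25a35 at 0.01.

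**Figure D3:**
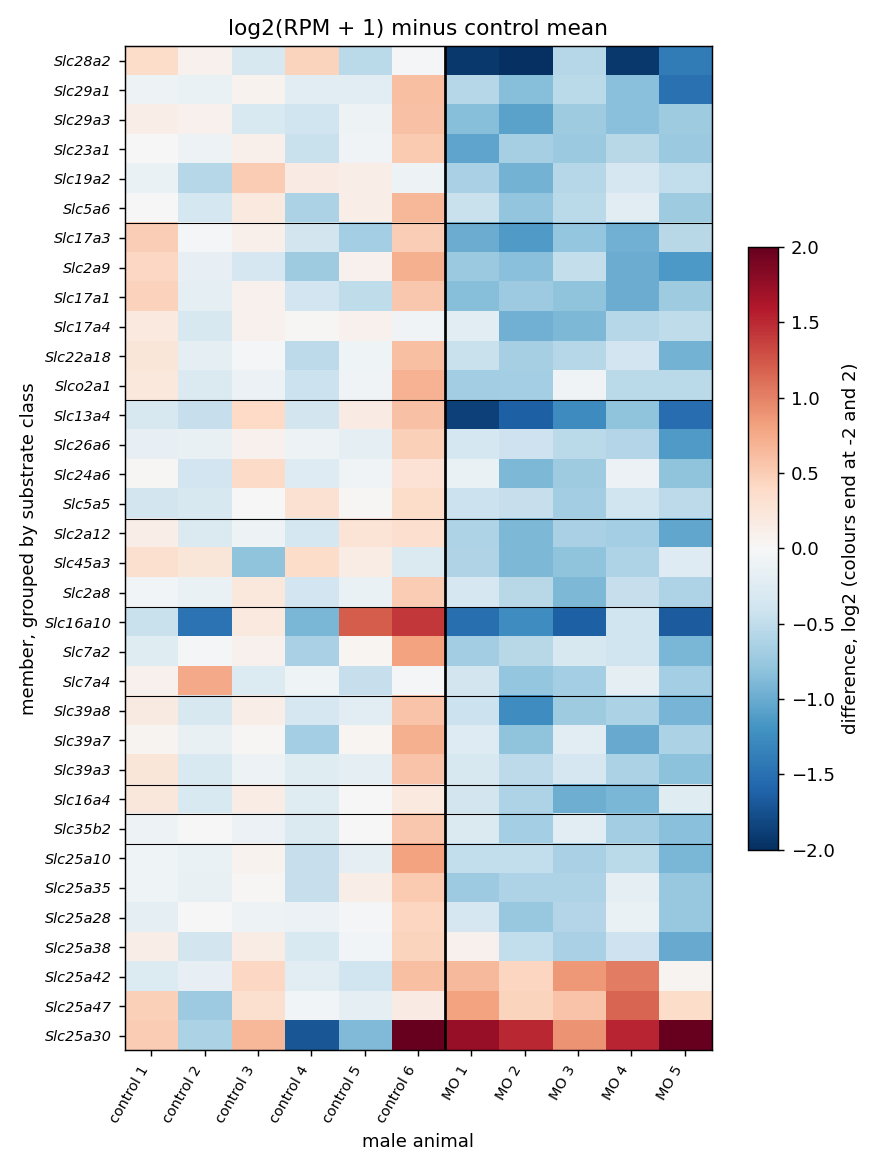
Difference of log2(RPM + 1) from the control mean for each member (rows, grouped by substrate class) in each male animal (columns, controls left of the line), blue lower and red higher, with colours ending at -2 and 2. The MO columns are mostly blue except for Slc25a42, Slc25a47 and Slc25a30, and control 6 is red in most rows.

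Summed levels are given per animal as a description. Because each of the 27 members outside the mitochondrial family was lower and all came from selected rows, a lower sum in MO males was fixed beforehand. The 27 members outside the mitochondrial family added up to 1572 to 2521 RPM in control males and to 915 to 1273 RPM in MO males, and the groups did not overlap. The 7 mitochondrial carriers added up to 658.6 to 1237 RPM in control males and 902.3 to 1471 RPM in MO males, with overlap. Most reads of the latter sum came from Slc25a47 and Slc25a10, which went opposite ways. By animal, MO males 1 to 5 had 1229, 1001, 1085, 1471 and 902.3 RPM, and control male 6, at 1237 RPM, was above all of them but MO male 4.

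**Figure D4:**
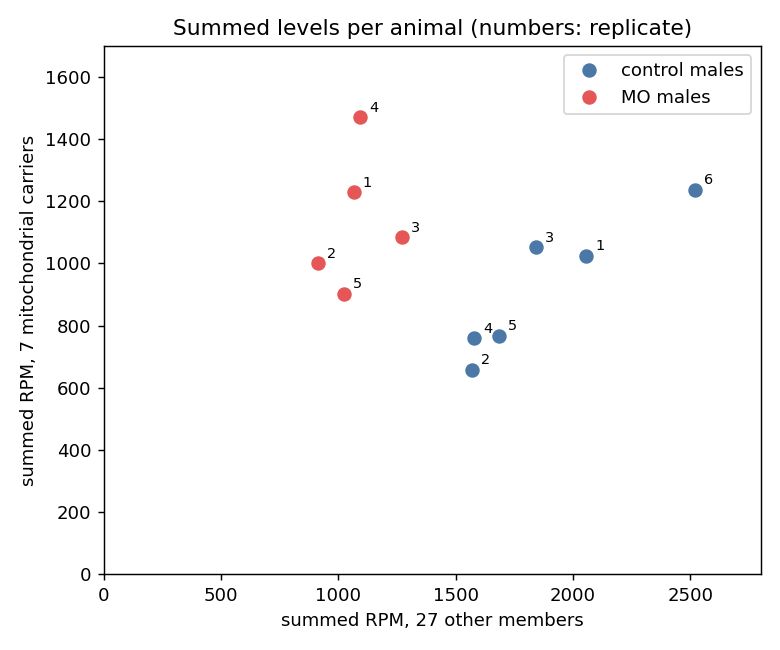
Summed RPM of the 7 mitochondrial carriers (vertical axis) against that of the 27 other members (horizontal axis), 1 point per male animal with its replicate number. MO animals lie at 915 to 1273 RPM on the horizontal axis and controls at 1572 RPM or more, while the vertical ranges overlap.

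Other membrane transport genes of the table, from lists by symbol, were all lower, as were 96.5% of all rows, so the direction says nothing particular of them. Of ABC transporters, which pump substrates with ATP, 8 were listed with a median log2 fold change of -0.66, among them the bile phospholipid transporter Abcb4 (-0.80 ± 0.25, SE). Of ion-pumping and lipid-flipping ATPases 4 were listed, with the calcium pump Atp2b2 at -1.79 ± 0.24 (SE) and the flippase Atp11a at -0.64 ± 0.18 (SE). The water channels Aqp8 and Aqp9, the latter also a glycerol channel, went from 163 ± 27.6 to 67.7 ± 10.8 RPM and from 190.7 ± 39.3 to 94.6 ± 10.4 RPM (SD, n = 6 and 5), both without overlap, as for 29.9% of all rows. After centring Atp2b2, Aqp8 and Aqp9 were still called lower (limma adjusted p = 0.0201, 0.00374 and 0.033), as were 1.76% of all rows. Of the 8 ABC transporters 0 were, which at that share is nothing particular to them. Of 17 fixed regulators of transporter genes 2 were listed, the clock factor Npas2 (-2.41 ± 0.28, SE, and still called after centring, limma adjusted p = 0.0033) and the antioxidant response factor Nfe2l2 (-0.53 ± 0.19, SE).

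Rmrp, an RNA without a poly(A) tail, set control males 1 and 5 apart from the other controls. Its level was 1.2 and 1.52 RPM in these 2 animals, 36.9 to 51.2 RPM in the other 4 controls and 1.71 to 3.11 RPM in MO males. Its part in the results was not tested beyond leaving the other 4 controls out. Against these 2 controls alone all 31 lower members stayed below 0. Both controls were among the animals by which the rows had been selected, so the kept direction is no separate support. Of the members 19 were called lower (36.1% of all rows were) and 2 higher (2.78% of rows). Slc28a2 was then at -1.57, Slc13a4 at -1.34, Slc25a30 at 1.77 and Slc25a42 at 0.94, and Slc25a47 at 0.52 was no longer called (limma adjusted p = 0.0901).

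Of the 34 members 0 were in the female table, which holds 69 rows for 6 control and 5 MO females of the same strain and age. Its 1 solute carrier row was Slc24a2, a sodium, potassium and calcium exchanger known from neurons, at 0.17 to 0.533 RPM in control females and at 0.091, 1.28, 1.72, 1.41 and 1.79 RPM in MO females. MO female 1 was below every control and the other 4 MO females above every control (0.68 ± 0.22, SE; limma adjusted p = 0.0153 over that table, where 81.2% of rows passed). By the exact permutation test it missed the threshold (adjusted p = 0.0554). After centring the change was 0.45 (limma adjusted p = 0.0562). These levels are low and probably rest on few reads. In the male libraries 1 read was worth 0.0863 to 0.127 RPM, and depth was not read for the female ones. Because each table holds selected rows, the absence of a member from the female table does not show that it did not differ there, and the sexes were not compared.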

How the data were processed

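Liver RNA of 11 male rats was analysed from the deposited male table, with the female table used for 1 row. Per the labels' protocols, the Illumina TruSeq kit was used on total RNA. Partek, STAR 2.3.1j and rn5 stand in the submitters' processing notes with no roles. How reads were counted, and whether by strand, is not given in the sources used. The values deposited by the authors behave as RPM with 1 added: in each male library 81.4% to 86.6% of those below 9 RPM were whole multiples of 1 step within 0.02 of a read. The log2 fold sizes deposited by the authors could be recomputed for 1365 of 1365 rows, and the p-values deposited by the authors reach at most 0.0496. Rows had thus been selected, with no log2 size under 0.48, so an adjusted p here is no false discovery rate over expressed genes.

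limma 3.58.1 (limma-trend, R 4.3.3) was fitted to log2(RPM + 1) of all rows, 6 control against 5 MO males, without a low-value filter or covariates, with Benjamini-Hochberg adjustment at 0.05, and was tested on simulated data. Single members were tested with exact two-sided permutation tests over 462 assignments. Labels name separate animals but no litters, so a p-value reflects only how far these animals vary. Classes follow the family number, with 5 members moved by known substrate. Values were printed for the 4 largest changes of each family class, all higher members, all without overlap and the 3 with the highest mean, 29 in all. The other 5 were added. Members and lists were chosen with earlier results of these data known. Alternatives were another pseudocount, a filter, centring, leaving out animals, a replicate block, controls 1 and 5 alone, a permutation test and another row per gene. Some results of the transporter and marker lists are not reported here.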

Additional observations from a re-analysis of the deposited data

Results flagged for a closer look

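Of 58 groups of 5 or 6 animals examined for the members first named, 8 held 1 animal far from the others by Dixon's criterion at 95%. Chance alone gives this in about 1 of 20 groups if values are normally distributed. The criterion was applied to RPM, not to log2 values, so that rate need not hold here. In all 8 the animal was a high one. Control male 6 was the high animal for Slc25a10 (426.2 RPM), Slc25a30 (44.6 RPM), Slc26a6 (15.7 RPM), Slc29a1 (89.9 RPM) and Slc35b2 (27.3 RPM). These 5 share 1 library and are not independent of each other. Control male 2 was the high animal for Slc7a4 (2.18 RPM). MO male 4 was high for Slc16a10 (14.9 RPM) and MO male 3 for Slco2a1 (350.6 RPM).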

How the results depend on the processing

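All 34 members were called in the reported fit, 31 lower and 3 higher. With each animal left out in turn 30 to 31 were called lower, 3 higher and 1282 to 1364 rows over the table, and after centring 4 to 5 members were called in place of 5, the lost one being Slc28a2. A call was lost in 4 of 374 such fits of single members, for Slco2a1, Slc7a4 and Slc25a38 as given above. A pseudocount of 0.1, a replicate block and the other row per gene changed no member's call. The filter at a mean of 1 RPM removed 1 member, Slc7a4, and changed no other call. The exact permutation test ended 1, that of Slc16a10. Centring left 2 members called lower and 72 rows over the table, and the change of sign it gave was small: Slc24a6 0.0535, Slc25a28 0.0703, Slc25a35 0.00864, Slc25a38 0.0888, Slc2a8 0.0134, Slc35b2 0.0387, Slc39a3 0.0623, Slc39a7 0.00218, Slc5a5 0.085, Slc5a6 0.0412, Slc7a2 0.00677, Slc7a4 0.0483 and Slco2a1 0.0795, none of them called. Centring subtracts a shift of -0.58 by construction. Against controls 1 and 5 alone 19 members were called lower, 531 rows over the table and, after centring, 3 members, with fewer animals in the fit. The exact permutation test after centring called 0 members, but with groups of this size no row could pass it after adjustment.

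Replicate numbers are shared between control and MO males, but same-numbered animals did not deviate together: the correlations of their deviations over all rows were -0.02, 0.07, 0.03, 0.15 and -0.1, so the numbers are not taken as pairs. With the replicate block 31 members were called lower, 3 higher and 1344 rows over the table, and 4 members after centring. Depth limits Slc7a4 and Slc5a5, which rest on 1 to 22 reads a library. Slc25a35 was also low, at 11 to 35 reads in controls and 11 to 20 in MO males.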
